A study of Mus musculus with 27 samples.

Results

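The genes described here carry the signal of tumor necrosis factor α (TNFα) to the transcription factor NFκB. By symbol, 10 genes were chosen: the cytokine Tnf, its receptors Tnfrsf1a and Tnfrsf1b, the kinase Ikbkb, the NFκB subunits Nfkb1, Nfkb2, Rela and Relb, and the inhibitors Nfkbia and Tnfaip3. Of these 10 genes, 9 had a probe set annotated to that gene alone, among 18193 genes read the same way, and Nfkb1 was not analysed here. Where a gene had several such probe sets, the one with the highest mean over all arrays stood for it.

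RNA of epididymal adipose tissue (EAT), the visceral fat beside the testis, was measured in 27 male C57BL/6J mice on 1 Affymetrix mouse array per mouse. Feeding lasted 18 weeks, with 9 mice on a Western diet to which quercetin, a plant flavonol, was added at 0.05% (quercetin mice below), 9 on the Western diet alone, which was rich in fat, cholesterol and sucrose, and 9 on the control diet AIN93G. All were of 1 strain and sex, arrived at 5 weeks of age and carried no engineered allele. They were housed 3 to a cage, and which mice shared a cage is not given in the sources used here, so that the p-values treat the mice as independent. The EAT was taken whole, with fat cells, blood vessels and immune cells together.

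TNFα is made in fat mainly by macrophages and acts on both of its receptors. Receptor signalling activates the IκB kinase complex, of which Ikbkb encodes a catalytic subunit, and this kinase marks the inhibitor IκBα for breakdown. NFκB dimers, most often p65 (Rela) with p50, then enter the nucleus and switch on inflammatory genes. Among those genes are IκBα itself (Nfkbia) and A20 (Tnfaip3), which close the loop by restraining the pathway, and Nfkb2 and Relb, which belong to its slower noncanonical arm. Much of this control acts on proteins, which arrays do not measure.

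The stretches below show where the letters of the κB consensus (GGG, a purine, any 2 bases, 2 pyrimidines, CC, on either strand) stand before the start sites of the inhibitors and of Nfkb2. They come from RefSeq on the mouse build GRCm38.p6, are written along the gene's own strand, and have the matches in capitals.
Nfkbia, chr12:55492657-55492686, minus strand: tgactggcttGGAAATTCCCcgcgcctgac
Tnfaip3, chr10:19015411-19015432, minus strand: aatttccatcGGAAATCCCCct
Tnfaip3, chr10:19015516-19015545, minus strand: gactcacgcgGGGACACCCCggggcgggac
Nfkb2, chr19:46304688-46304736, plus strand: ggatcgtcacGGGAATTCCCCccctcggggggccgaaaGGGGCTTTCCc
Nfkb2, chr19:46305449-46305478, plus strand: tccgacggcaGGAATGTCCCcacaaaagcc
Nfkb2, chr19:46305695-46305724, plus strand: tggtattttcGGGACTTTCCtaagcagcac
The 3 stretches of Nfkb2 belong to windows of 3 start sites, and the first run of capitals in the first of them holds 2 overlapping matches. Promoter windows (250 bases before to 50 after a start) were found for 7 of the 10 genes, and those of 3 genes held a match. Among all 32851 such windows, 8.46% held one, beside 5 of the 10 windows of these 7 genes. These windows are not separate units, since 3 of the 5 are of Nfkb2, of which 2 overlap and share a match. The share of all genes, in place of windows, is not given here. The windows of Tnf, Tnfrsf1a, Tnfrsf1b and Rela did not hold these letters. A match is a description of the sequence and was not tested as a binding site.

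The study also read Tnf and Rela by RT-PCR relative to Gapdh, with the primers shown here because they name what was amplified beside the array probe sets. The RT-PCR values were not analysed here.
Tnf forward: ccctcacactcagatcatcttct
Tnf reverse: gctacgacgtgggctacag
Rela forward: tgcccagaccgcagtatc
Rela reverse: ggattcgctggctaatgg

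All values below are log2 signals after quantile normalization between arrays, and differences are log2 fold changes tested with limma, with Benjamini-Hochberg adjustment over the 18193 genes and a threshold of 0.05. Adipocyte markers were high on every array (mean log2 signal 11.68 to 12.24), although the labels' extraction text names liver. Mean hepatocyte marker signals reached 10.97 in quercetin mice, 12.69 on the Western diet and 10.37 on the control diet. Some arrays carried RNA of neighbouring tissues, and 9 stood at least 2 log2 units above the median of all arrays in testis, smooth muscle or B cell markers. Control replicate 6 had a mean testis marker signal of 12.65, and it was the lowest of all 27 arrays in 7 of the 9 genes. Control replicate 3 had the highest mean B cell (6.71) and T cell (5.42) marker signals of the control mice, whose medians were 4.19 and 3.78. It was also the highest control mouse in Tnf, Tnfrsf1b, Nfkb2, Relb and Tnfaip3. The testis, smooth muscle and B cell lists alone chose the 9 arrays. These were control replicates 2, 3, 4, 6 and 9, Western diet replicate 7 and quercetin replicates 1, 3 and 5. Leaving them out thus took the most mice from the control diet, and calls that changed were not split between other tissue and fewer mice. Arrays high in hepatocyte markers only were kept, with Western diet replicates 4 (12.69) and 6 (11.64) and quercetin replicate 8 (10.97) the highest. Without the 9 arrays, Tnfrsf1b and Nfkb2 passed as higher on the Western diet, Tnfaip3 did not (adjusted p = 0.0596), and none of the 9 genes differed between quercetin mice and the Western diet.

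On the Western diet, the second TNF receptor Tnfrsf1b rose to 2.04 times its control signal and Tnfaip3 to 1.29 times, while Tnf and Rela did not pass the test. These were 2 of 9 genes higher and 0 lower, beside 11.3% of all genes higher and 6.42% lower in this comparison. With an unadjusted p under 0.05, 3 of the 9 were higher, against 17.6% of all genes. Of the 9, 8 had a positive log2 fold change (50.1% of all genes), and the median of the 9 was 0.20, beside 0.0003 for all genes. Without control replicate 6, the lowest of all 27 arrays in 7 of the 9 genes, Rela turned to -0.008 and no other sign among the 9 changed. In quercetin mice none of the 9 passed limma's test against the Western diet, with 0 higher and 0 lower, beside 0.253% and 0.0824% of all genes. At an unadjusted p under 0.05, only Tnfrsf1b was lower (6.43% of all genes), and 8 of the 9 had a negative log2 fold change (46.6% of all genes), with a median of -0.10 against 0.02 for all genes. The same Western diet mice enter both comparisons, with opposite sign. Other tests of the same values did call Tnfrsf1b lower, as given with its values. Against the control diet, quercetin mice had 0 of 9 genes higher and 0 lower (5.01% and 1.65% of all genes), with 2 higher at an unadjusted p under 0.05 (14.6% of all genes). The groups of 9 mice overlapped for each gene in each comparison, where 0.269%, 1.29% and 0.247% of all genes did not overlap for quercetin against the Western diet, the Western diet against the control diet, and quercetin against the control diet.

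**Figure D1:**
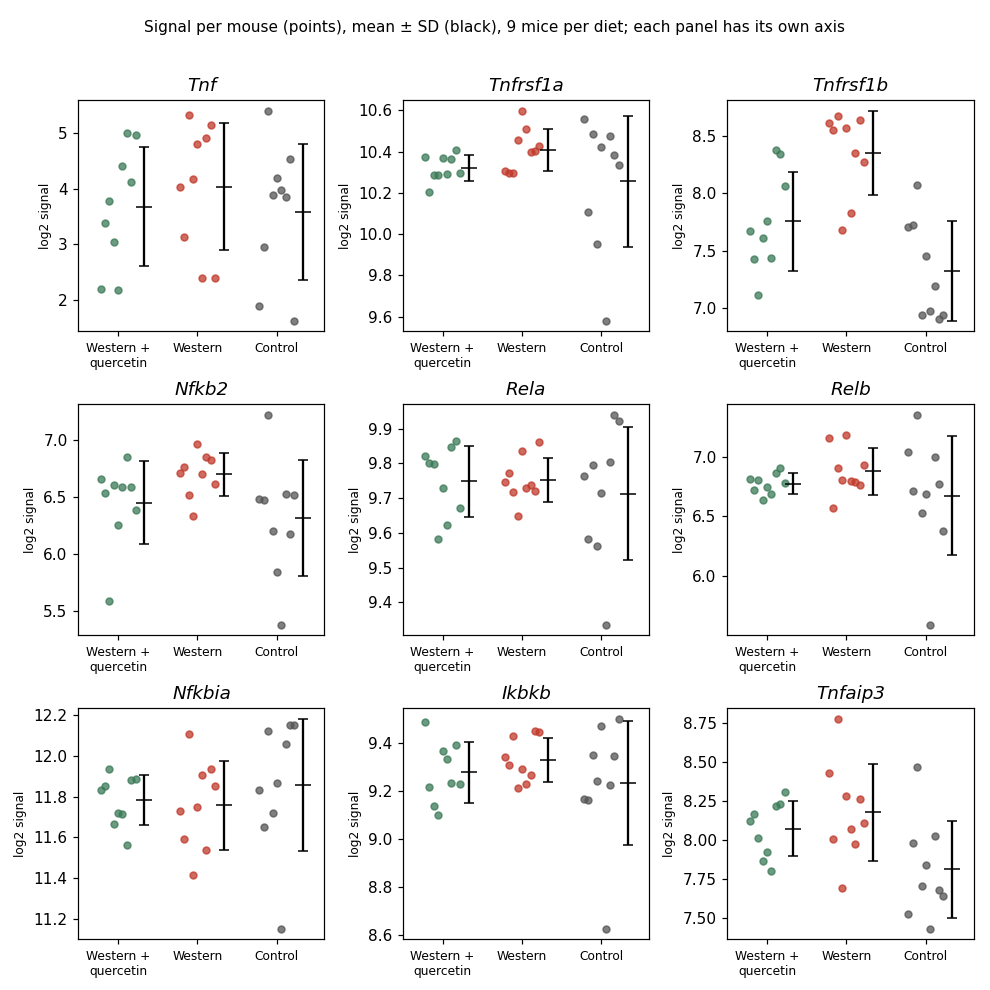
Log2 signal of the 9 genes in each mouse (points) on the Western diet containing quercetin, the Western diet and the control diet, with the mean and SD of 9 mice in black and a separate axis for each gene. Tnfrsf1b is the gene whose diets are set apart most clearly, with medians of 7.67, 8.55 and 7.19, and control replicate 6 is the low point in 7 panels.

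Tnf, the ligand, gave a faint and widely scattered signal. Its log2 signals had a lowest value of 2.19, a median of 3.79 and a highest value of 5.01 in quercetin mice, 2.39, 4.17 and 5.33 on the Western diet, and 1.63, 3.88 and 5.40 on the control diet. The ranges covered nearly the same span on all diets. The means were 3.68 ± 1.06 in quercetin mice, 4.04 ± 1.14 on the Western diet and 3.59 ± 1.22 on the control diet (SD, n = 9). The log2 fold change was -0.36 for quercetin against the Western diet (95% interval -1.42 to 0.71, limma adjusted p = 0.847), and 0.45 for the Western diet against the control diet (-0.62 to 1.51, adjusted p = 0.609). A fall of 1 log2 unit with quercetin and a rise of 1 log2 unit on the Western diet lie within these intervals, while the opposite changes of that size lie outside them. At so faint a level the intervals describe the signal of this probe set and do not bound the change in Tnf RNA. Without the 9 arrays high in testis, smooth muscle or B cell markers, quercetin against the Western diet gave 0.23 (adjusted p = 0.908). Before normalization its signals ran from 4.38 to 29.4 in quercetin mice, 3.25 to 40.2 on the Western diet and 3.37 to 47.8 on the control diet, while the median of all probe sets on an array lay between 25.2 and 54.4. Only 1 probe set reads Tnf.

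Tnfrsf1a, the TNF receptor found on most cell types, varied little. It had a lowest value of 10.20, a median of 10.30 and a highest value of 10.41 in quercetin mice, 10.30, 10.40 and 10.60 on the Western diet, and 9.58, 10.38 and 10.56 on the control diet. Of the 9 quercetin mice, 5 lay below all Western diet mice, but the difference was small, with a log2 fold change of -0.09 (95% interval -0.28 to 0.10, limma adjusted p = 0.745). The Western diet differed from the control diet by 0.15 (-0.03 to 0.34, adjusted p = 0.258), and by 0.07 without control replicate 6.

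Tnfrsf1b, the receptor carried mostly by immune and endothelial cells, showed the largest difference of the 9 genes on the Western diet. Its log2 signals had a lowest value of 7.11, a median of 7.67 and a highest value of 8.38 in quercetin mice, 7.68, 8.55 and 8.67 on the Western diet, and 6.90, 7.19 and 8.07 on the control diet. All but 2 Western diet mice lay above every control mouse, and all 9 quercetin mice lay below the Western diet median, 5 of them below every Western diet mouse. The means were 7.75 ± 0.43 in quercetin mice, 8.35 ± 0.36 on the Western diet and 7.32 ± 0.43 on the control diet (SD, n = 9). Western diet mice had 2.04 times the control signal, a log2 fold change of 1.03 (95% interval 0.65 to 1.40, limma adjusted p = 2.56e-04), and the rise passed under every alternative tried, at its smallest 0.64 (adjusted p = 0.00262) with the mean of both probe sets. With quercetin the signal was 0.662 times that on the Western diet, a log2 fold change of -0.59 (-0.97 to -0.22), which had an unadjusted p of 0.00308 but an adjusted p of 0.127. The same difference passed with array weights in limma (adjusted p = 0.0191), and over all limma alternatives the adjusted p ran from 0.0191 to 0.386. It was also called lower with the test of the study's methods, Tukey's test after an analysis over the 3 diets. The Tukey value was not adjusted over all genes, so that call is not comparable with limma's adjusted p. With the mean of both probe sets the difference was -0.36 (adjusted p = 0.289). Quercetin mice stood 0.43 above the control diet (0.06 to 0.81, adjusted p = 0.157). In a test over the 3 diets together, Tnfrsf1b was the only one of the 9 genes to pass (limma adjusted p = 9.77e-04).

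**Figure D2:**
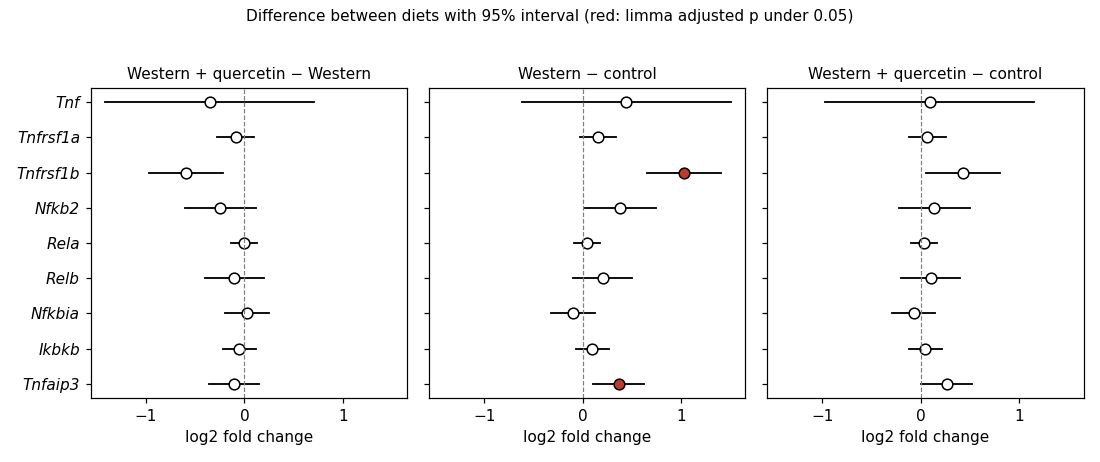
Log2 fold change of each of the 9 genes with its 95% interval, for quercetin against the Western diet, the Western diet against the control diet, and quercetin against the control diet. Red points passed limma's adjusted p of 0.05, and these were Tnfrsf1b and Tnfaip3 on the Western diet against the control diet, while the intervals of Tnf are the widest and those of Rela the narrowest.

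Ikbkb, the IκB kinase subunit, was similar on the 3 diets. It had a lowest value of 9.10, a median of 9.23 and a highest value of 9.49 in quercetin mice, 9.21, 9.31 and 9.45 on the Western diet, and 8.63, 9.24 and 9.50 on the control diet. The lowest control value is that of control replicate 6, and the ranges overlapped almost fully. The log2 fold change was -0.05 for quercetin against the Western diet (95% interval -0.22 to 0.12, limma adjusted p = 0.858) and 0.10 for the Western diet against the control diet (-0.07 to 0.27, adjusted p = 0.445).

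Rela, which encodes the p65 subunit, was the gene measured most tightly. It had a lowest value of 9.58, a median of 9.80 and a highest value of 9.87 in quercetin mice, 9.65, 9.74 and 9.86 on the Western diet, and 9.34, 9.76 and 9.94 on the control diet. Means were 9.75 ± 0.10 in quercetin mice, 9.75 ± 0.06 on the Western diet and 9.71 ± 0.19 on the control diet (SD, n = 9), and 5 of 9 quercetin mice lay above the Western diet median. Quercetin against the Western diet gave a log2 fold change of -0.004 with a 95% interval of -0.14 to 0.13 (limma adjusted p = 0.991). The Western diet differed from the control diet by 0.04 (-0.09 to 0.17, adjusted p = 0.727). The intervals describe the normalized signal of the probe set used for Rela, and they do not bound the change in Rela RNA itself. The arrays did not measure p65 protein or its place in the cell.

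Nfkb2 and Relb, the subunits p100/p52 and RelB of the noncanonical arm, had positive log2 fold changes on the Western diet that did not pass. Nfkb2 had a lowest value of 5.59, a median of 6.59 and a highest value of 6.85 in quercetin mice, 6.33, 6.71 and 6.96 on the Western diet, and 5.38, 6.48 and 7.22 on the control diet. Of the 9 Western diet mice, 8 lay above the control median, and 8 of 9 quercetin mice lay below the Western diet median. The log2 fold change of Nfkb2 was -0.25 for quercetin against the Western diet (95% interval -0.60 to 0.11, limma adjusted p = 0.597) and 0.38 for the Western diet against the control diet (0.02 to 0.74, adjusted p = 0.136). It passed without control replicate 3, its highest control mouse, at 0.49 with an adjusted p of 0.029. That array was the control array highest in B cell and T cell markers, and their part in this value was not tested. Relb had a lowest value of 6.64, a median of 6.78 and a highest value of 6.91 in quercetin mice, 6.57, 6.81 and 7.18 on the Western diet, and 5.59, 6.71 and 7.35 on the control diet. Its control mice spread most, and its differences were -0.10 for quercetin against the Western diet (adjusted p = 0.844) and 0.20 for the Western diet against the control diet (adjusted p = 0.377), the second being 0.07 without control replicate 6.

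Nfkbia, the gene of IκBα, had its highest median on the control diet. It had a lowest value of 11.57, a median of 11.83 and a highest value of 11.93 in quercetin mice, 11.41, 11.75 and 12.11 on the Western diet, and 11.15, 11.87 and 12.15 on the control diet. The groups overlapped over most of their range. The log2 fold change was 0.03 for quercetin against the Western diet (95% interval -0.19 to 0.25, limma adjusted p = 0.959) and -0.10 for the Western diet against the control diet (-0.32 to 0.12, adjusted p = 0.582), or -0.19 without control replicate 6. It was the only one of the 9 genes with a negative value on the Western diet, but had 0.05 there when arrays were shifted to a common median and 0.010 as the mean of its probe sets.

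Tnfaip3, which encodes the ubiquitin-editing enzyme A20, rose on the Western diet. It had a lowest value of 7.80, a median of 8.12 and a highest value of 8.31 in quercetin mice, 7.69, 8.11 and 8.78 on the Western diet, and 7.43, 7.71 and 8.47 on the control diet. Of 9 Western diet mice, 8 lay above the control median, and so did all 9 quercetin mice. The rise on the Western diet was 0.37 on the log2 scale, 1.29-fold (95% interval 0.11 to 0.62, limma adjusted p = 0.0425). The call rests closely on single mice, since it was lost on leaving out any one of Western diet replicates 1, 3, 5, 8 and 9 or control replicates 1, 4, 5, 6, 8 and 9, with adjusted p between 0.0501 and 0.0962. It was also lost under 7 of the 12 other ways of processing. Without control replicate 6 it was 0.32 (adjusted p = 0.068). Quercetin mice had -0.11 against the Western diet (-0.36 to 0.15, adjusted p = 0.793) and 0.26 against the control diet (adjusted p = 0.223).

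**Figure D3:**
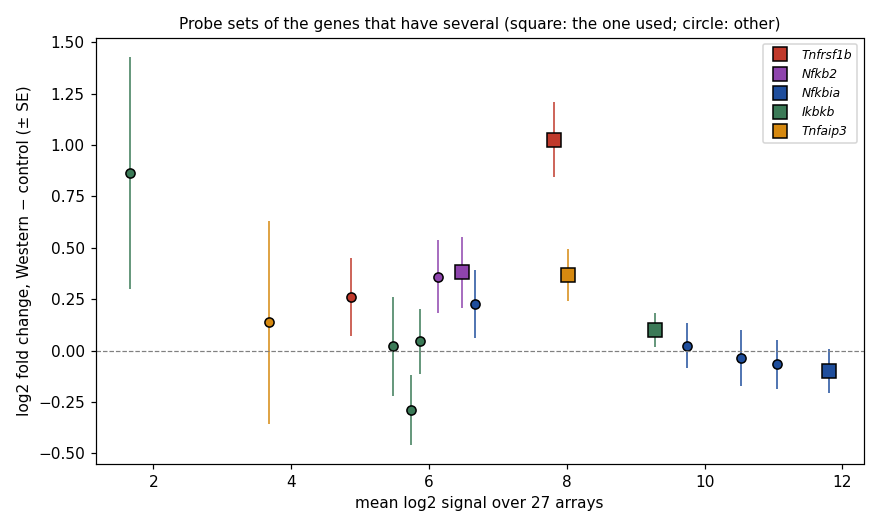
Log2 fold change of the Western diet against the control diet (± SE) by mean log2 signal, for every probe set of the 5 genes that have several; squares are the probe sets used and circles the others. The second probe set of Tnfrsf1b had a lower signal (4.86) and a smaller difference (0.26), and the 4 brightest of Nfkbia lay between -0.10 and 0.02.

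For 5 genes several probe sets gave a check within the array. The other probe set of Tnfrsf1b had log2 signals of 4.86 ± 0.43 in quercetin mice, 4.99 ± 0.31 on the Western diet and 4.73 ± 0.38 on the control diet (SD, n = 9), with log2 fold changes of -0.13 for quercetin and 0.26 for the Western diet (limma adjusted p = 0.403 over all probe sets for the second). It pointed the same way as the probe set used but did not pass. Nfkb2 had 0.38 and 0.36 on the Western diet from its 2 probe sets, but -0.25 and 0.12 for quercetin against the Western diet. The second probe set of Tnfaip3, with a mean signal of 3.67, had 0.14 on the Western diet, -0.86 for quercetin against the Western diet and -0.72 for quercetin against the control diet, the last opposite in sign to the 0.26 of the probe set used, and none of the 3 passed. The 5 probe sets of Nfkbia and the 5 of Ikbkb gave no difference past the threshold in either comparison. Which transcripts the probe sets within a gene read was not tested.

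Macrophage markers moved with the diets beside these genes. With the Western diet against the control diet, 12 of 14 macrophage markers were higher and 0 lower, with a median log2 fold change of 1.51. For quercetin against the Western diet 0 passed, 13 of 14 were negative, and the median was -0.70. The summed signal of the 14 markers ran from 12502 to 34115 in quercetin mice, 20330 to 42442 on the Western diet and 10237 to 22340 on the control diet, and no marker was at the floor. In whole tissue, fewer cells of a type and less RNA per cell cannot be told apart. The median log2 fold changes of the T cell markers for quercetin and for the Western diet were 0.01 and 0.17, of the B cell markers 0.06 and -0.57, of the neutrophil markers -0.28 and 0.40 (2 of 5 higher on the Western diet), of the endothelial markers 0.07 and 0.02 (1 of 5 lower on the Western diet), and of the adipocyte markers -0.0002 and -0.02 (1 of 7 higher and 1 lower on the Western diet). Those of the smooth muscle markers were 0.35 and -1.27 (2 of 6 lower on the Western diet) and those of the testis markers 0.99 and -1.81 (none of 7 passed). The mesothelial markers had -0.29 and -2.15 (1 of 3, Krt19, lower on the Western diet), and the hepatocyte markers -0.70 and 1.53 (1 of 5 lower on the Western diet). RNA quality, as the 3' minus 5' log2 signal of actin, also differed by diet, at 1.16 ± 0.17 in quercetin mice, 0.81 ± 0.09 on the Western diet and 1.05 ± 0.23 on the control diet (SD, n = 9; exact two-sided permutation test, p = 8.23e-05 for quercetin against the Western diet and 0.00666 for the Western diet against the control diet). The part of these in the differences of the 9 genes was not tested.

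Within a diet, where the mice share their feed, Tnfrsf1b followed the macrophage markers. Against the mean log2 signal of the 14 markers it had r = 0.96 and rho = 0.93 in quercetin mice, r = 0.84 and rho = 0.87 on the Western diet, and r = 0.87 and rho = 0.87 on the control diet (n = 9 each). The exact two-sided permutation p-values of r were 5e-05, 0.0052 and 0.0022 in that order of diets, and 0.0013, 0.047 and 0.029 after adjustment over 27 relations (9 genes in 3 diets). Those of rho were 7.5e-04, 0.0045 and 0.0045, and 0.020, 0.041 and 0.041 after adjustment. After leaving out the 2 mice whose markers lay farthest from the median, r was 0.94 in quercetin mice, 0.37 on the Western diet and 0.63 on the control diet. The value on the Western diet was thus much lower without those 2 mice. Leaving them out also narrows the range of the markers, so the fall alone cannot show whether the relation rests on them. With the mean of both Tnfrsf1b probe sets, r was 0.88, 0.77 and 0.69 in the same order, and none of the 3 passed after adjustment. No other gene passed. Tnf had r = 0.45 in quercetin mice, 0.67 on the Western diet and 0.31 on the control diet (n = 9 each, exact permutation p = 0.219, 0.0545 and 0.428; adjusted 0.423, 0.294 and 0.603), and Rela 0.13, 0.22 and -0.13 (exact permutation p = 0.731, 0.573 and 0.734; adjusted 0.762, 0.672 and 0.762).

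**Figure D4:**
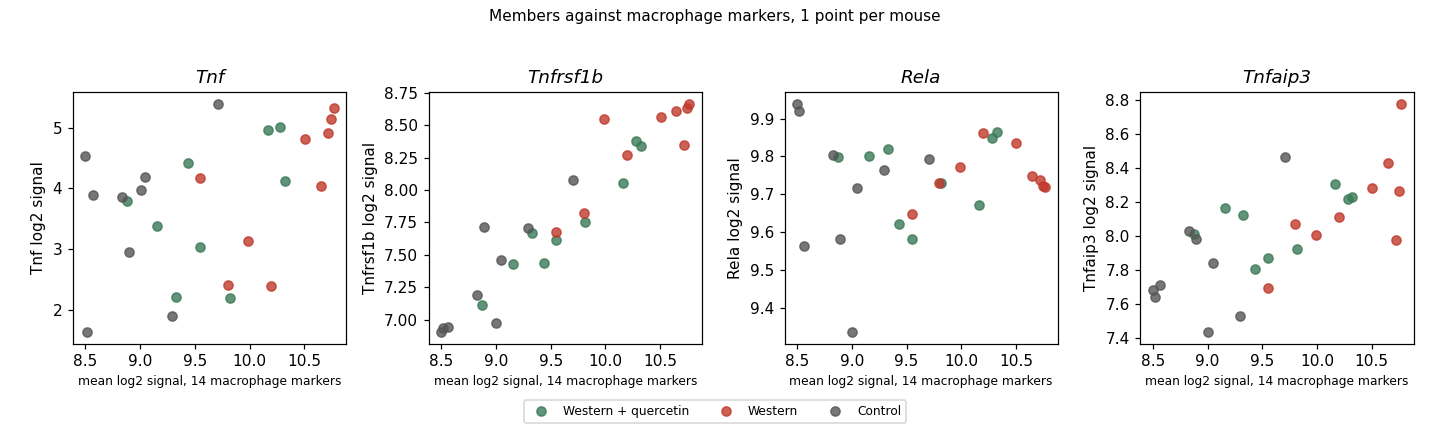
Log2 signal of Tnf, Tnfrsf1b, Rela and Tnfaip3 against the mean log2 signal of 14 macrophage markers, 1 point per mouse, with the Western diet containing quercetin, the Western diet and the control diet in separate colors. Points of Tnfrsf1b run along one band within each diet (r = 0.96, 0.84 and 0.87), while those of Rela do not.

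Among the 9 genes themselves, 29 of 36 pairs had a positive correlation in quercetin mice. On the Western diet 30 of 36 did, and on the control diet 33 of 36. These counts were not tested against each other, and the share of positive pairs over all genes was not computed. On the control diet some pairs turned without the 2 mice farthest from the first gene's median, while others stayed positive. Relb with Ikbkb went from 0.62 to -0.62, and Nfkb2 with Ikbkb from 0.55 to -0.46. Of the 108 relations, only Rela with Nfkbia on the control diet passed after adjustment (n = 9, r = 0.96, exact permutation p = 5.2e-05, adjusted 0.0057). Its rank correlation of 0.93 (exact permutation p = 7.5e-04) had an adjusted p of 0.081. With the 2 mice farthest from the median left out, r was 0.91. Control replicate 6 was the lowest mouse in both genes.

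The genes whose signal over the 27 arrays was most like that of Tnf were Scg2, Arr3, Ccl3, Nsmaf and Rptoros, with Pearson r between 0.60 and 0.63. For Rela they were Slc12a7, Rarg, Gripap1, Trim3 and Pdgfb, with r between 0.82 and 0.88. These are descriptions over arrays that share diets and normalization. The genes were picked as the highest r among all genes, so that r as high as those of Tnf can arise by chance, which was not tested. The log2 fold changes of the 5 genes most like Tnf lay between -0.92 (Ccl3, a chemokine of macrophages) and 0.06 (Arr3) for quercetin against the Western diet, and between 0.43 (Nsmaf) and 1.88 (Rptoros) for the Western diet against the control diet. Those of the 5 genes most like Rela lay between -0.06 (Pdgfb) and 0.09 (Rarg), and between 0.0030 (Pdgfb) and 0.10 (Slc12a7).

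Around these genes, 92 of 98 other genes of the pathway were measured, in 6 lists. On the Western diet 23 of the 92 were higher and 2 lower, beside the 11.3% and 6.42% of all genes, and their median log2 fold change was 0.19. Without the 9 arrays high in testis, smooth muscle or B cell markers, 21 were higher and 2 lower, and with no normalization between arrays 13 were higher and 1 lower. In quercetin mice against the Western diet 0 were higher and 0 lower, beside 0.253% and 0.0824% of all genes. Of the 92, 62 were negative (46.6% of all genes), and the median was -0.07. There 8 were lower with the test of the study's methods, 7 with array weights, 2 in a fit of only those 2 diets and 1 with a floor of 32, and none was higher. Under the first 3 of these settings many more of all genes were also called lower than in the main fit, as given in the closing section. Relative to the control diet, quercetin mice had 4 of the 92 higher and 0 lower (5.01% and 1.65% of all genes), namely Fadd, Tnip1, Tnfrsf12a and Saa3. There were 16 higher without control replicate 3, the control array highest in B cell and T cell markers. The share of all genes called in that fit is not given here, so the 16 is not read as a result about the pathway. The Western diet mice enter both of the first comparisons, with opposite sign.

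**Figure D5:**
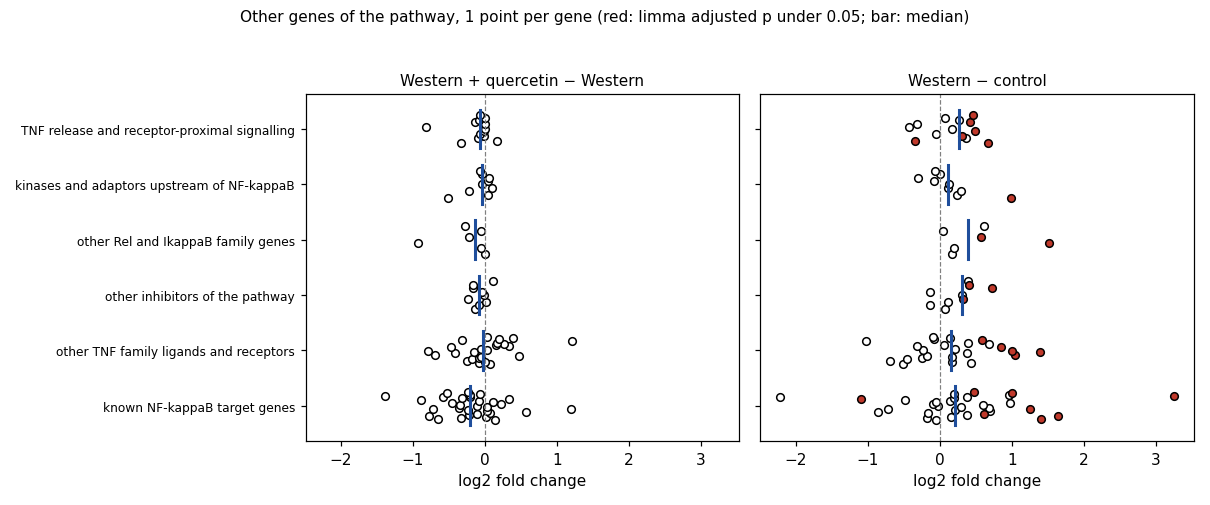
Log2 fold changes of the 92 other pathway genes in 6 lists, for quercetin against the Western diet and the Western diet against the control diet, with 1 point per gene, red where limma's adjusted p was under 0.05, and a blue bar at the list's median. On the Western diet 23 points are red to the right of 0 and 2 to the left, and none is red for quercetin. Other tests called up to 8 genes lower there, and also called more of all genes lower.

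Upstream of NFκB, 5 of 13 genes of TNF release and receptor-proximal signalling were higher on the Western diet and 1 was lower (median 0.26). Adam17, the protease that sheds TNFα and its receptors from the cell surface, had 8.70 ± 0.25 in quercetin mice, 9.04 ± 0.37 on the Western diet and 8.37 ± 0.30 on the control diet (SD, n = 9). It rose by 0.67 on the Western diet (limma adjusted p = 0.00117) and had -0.34 for quercetin against the Western diet (adjusted p = 0.256, or 0.0468 with array weights), the smallest p of its list. Fadd, the death domain adaptor, rose by 0.48 on the Western diet (adjusted p = 0.00116), and Birc2, a ubiquitin ligase of the receptor complex, fell (-0.35, adjusted p = 0.00277). Birc2 did not pass with no normalization (adjusted p = 0.0857) or without the 9 arrays (-0.22, adjusted p = 0.0961). Of the 9 measured kinases and adaptors, 1 rose on the Western diet (median 0.12), and this was Ikbke, an IκB kinase relative, with 6.42 ± 0.66 in quercetin mice, 6.93 ± 0.42 on the Western diet and 5.94 ± 0.58 on the control diet. Its log2 fold change was 0.98 (adjusted p = 0.00712) on the Western diet and -0.51 (adjusted p = 0.373) for quercetin against it.

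Among the other Rel and IκB family genes, 2 of 6 rose on the Western diet and all 6 were positive (median 0.38). Nfkbid, a nuclear IκB protein, had 5.49 ± 0.54 in quercetin mice, 6.42 ± 0.71 on the Western diet and 4.91 ± 0.73 on the control diet (SD, n = 9), log2 fold changes of 1.51 (limma adjusted p = 7.70e-04) on the Western diet and -0.93 (adjusted p = 0.139) for quercetin against it. The quercetin difference of Nfkbid passed with array weights (adjusted p = 0.0198). It was also called with the methods' test, whose Tukey value was not adjusted over all genes. Nfkbie, the gene of IκBε, rose by 0.58 with an adjusted p of 0.048, a call lost in 20 of the 27 fits that left out 1 array and under 9 of 12 other settings. Of 9 other inhibitors 3 rose (median 0.31), namely the A20-binding proteins Tnip1 (0.72, adjusted p = 1.79e-04) and Tnip2 (0.40, adjusted p = 0.00733) and the linear-ubiquitin peptidase Otulin (0.32, adjusted p = 0.0225). Tnip1 was also 0.55 higher in quercetin mice than on the control diet (adjusted p = 0.00855), a call lost with no normalization (adjusted p = 0.0592), while quercetin against the Western diet gave -0.17 (adjusted p = 0.612). The rise of Tnip2 was lost with no normalization (adjusted p = 0.11) and without the 9 arrays (adjusted p = 0.0654), and so was that of Otulin (adjusted p = 0.188 and 0.0861). Otulin also did not pass without control replicate 5 (0.28, adjusted p = 0.0505) or Western diet replicate 7 (0.29, adjusted p = 0.0513). For quercetin against the Western diet Otulin had -0.24 (adjusted p = 0.243), a difference called with the methods' test, whose Tukey value was not adjusted over all genes.

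Of 24 other TNF family ligands and receptors, 5 rose on the Western diet (median 0.16). Tnfrsf12a, the receptor of TWEAK, had 7.76 ± 0.44 in quercetin mice, 7.92 ± 0.45 on the Western diet and 6.53 ± 0.88 on the control diet (SD, n = 9). Relative to the control diet it was 1.39 higher on the Western diet (limma adjusted p = 7.68e-04) and 1.24 higher in quercetin mice (adjusted p = 0.00831). Tnfrsf11a, which encodes the receptor RANK, rose by 1.05 (adjusted p = 3.62e-04) on the Western diet and had -0.69 (adjusted p = 0.0973) for quercetin against it. The quercetin difference of Tnfrsf11a passed with array weights (adjusted p = 0.00843), a fit of only those 2 diets (0.0344), a floor of 32 (0.0368) and without control replicate 6 (0.0455). It was also called with the methods' test, whose Tukey value was not adjusted over all genes. Tnfsf13b, the B cell factor BAFF, rose by 0.58 (adjusted p = 0.00278), a call lost with no normalization (0.50, adjusted p = 0.0898) and with the mean of all probe sets (0.27, adjusted p = 0.254).

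Among 31 known NFκB target genes, 7 rose and 1 fell on the Western diet, with a median of 0.21. The 1 that fell was Mmp9, a matrix gelatinase (-1.10, limma adjusted p = 0.0171), which was named after its value was seen. Saa3, a serum amyloid made in inflamed fat, had 9.09 ± 1.25 in quercetin mice, 10.48 ± 0.56 on the Western diet and 7.23 ± 1.44 on the control diet (SD, n = 9). It rose by 3.25 on the Western diet (limma adjusted p = 6.43e-05), had -1.39 for quercetin against the Western diet (adjusted p = 0.187), and was 1.86 higher in quercetin mice than on the control diet (adjusted p = 0.026). The quercetin difference from the Western diet passed with array weights (adjusted p = 0.0467). It was also called with the methods' test, whose Tukey value was not adjusted over all genes. The difference from the control diet was lost with no normalization (adjusted p = 0.0592), with a replicate block (adjusted p = 0.0521), in a fit of only those 2 diets (adjusted p = 0.0864), and on leaving out any one of quercetin replicates 7, 8 and 9 or control replicate 9 (adjusted p = 0.0528 to 0.0579). Cd44, an adhesion receptor for hyaluronan, rose by 1.65 (adjusted p = 1.23e-04), and Tlr2, a receptor for bacterial lipoproteins, by 1.00 (adjusted p = 2.23e-04). For quercetin against the Western diet, Tlr2 had -0.53 (adjusted p = 0.147, or 0.0209 with array weights and 0.0278 in a fit of only those 2 diets), the smallest p of the list, in which 21 of 31 genes were negative (median -0.21). Tlr2 was also called lower with the methods' test, whose Tukey value was not adjusted over all genes. The macrophage markers had medians of the same signs (1.51 and -0.70), and their part in the values of the lists was not tested.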

How the data were processed

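Labelled RNA of each mouse was hybridized to 1 Affymetrix array. The authors used Microarray Suite and GeneSpring for the signals, and the deposited table holds linear intensities without scaling between arrays (medians 25.2 to 54.4). Of 45101 probe sets, 34945 were annotated to 1 gene and 932 to several, which were left out. Quantile normalization was applied to these intensities, a floor of 1 was set, and log2 was taken. Groups and replicate numbers came from the sample titles. No 2 arrays were identical (highest correlation 0.951).

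Tests used limma 3.58.1 in R 4.3.3, with a mean for each diet fitted to the 27 arrays together, eBayes with a mean-variance trend, and Benjamini-Hochberg adjustment at 0.05. The code was tested on simulated data with 200 changed genes. Correlations within a diet used exact permutations of pairings, in Python 3.11.15 with SciPy 1.17.1, and figures used matplotlib 3.10.9. The genes and the lists around them were chosen with earlier results of these data known. Named were all measured genes of the pathway core, up to 3 genes per list with the smallest p past the threshold in each of 2 comparisons, or the 1 with the smallest p where none passed, and the 5 genes most like Tnf and Rela.

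The alternatives changed the normalization (none, or a shift to a common median), the low values (floor 32, pseudocount 16, or only genes above the median), the probe sets (their mean), the fit (no trend, array weights, a replicate block, only the diets compared), the test (that of the study's methods) and the arrays (left out singly or by testis, smooth muscle and B cell markers). Those for the 92 further pathway genes and for the macrophage relation were added after the data were seen. Gene names came from the array's platform annotation. The number of arrays, and for Tnf its signal over background, limits the precision.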

Additional observations from a re-analysis of the deposited data

Results flagged for a closer look

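In 3 of the 27 combinations of gene and diet, 1 mouse lay far from the other 8, with a gap to the nearest above Dixon's 95% limit, where chance alone gives about 1.35 such groups. Nfkb2 on quercetin replicate 3 had a log2 signal of 5.59, and the next lowest quercetin mouse had 6.25. Nfkbia on control replicate 6 had 11.2, against 11.7 in the next lowest control mouse. Ikbkb on the same control array had 8.63, against 9.16 in the next. Control replicate 6 is the array with a mean testis marker signal of 12.65, and quercetin replicate 3 had one of 6.66. The part of other tissue in these values was not tested.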

How the results depend on the processing

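Leaving out 1 array at a time, the Western diet gave 1 to 3 of the 9 genes higher and 21 to 30 of the 92 other pathway genes higher, 2 to 4 of them lower. For quercetin against the control diet, 3 to 16 of the 92 were higher (16 without control replicate 3, 10 without control replicate 1, 7 without quercetin replicate 3) and 0 to 1 lower. For quercetin against the Western diet, 0 to 1 of the 92 were lower, the 1 being without control replicate 6. The other counts stayed at 0. How many of all genes each of these fits called is not given here, so the counts are not read as results about the pathway.

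On the Western diet only 1 of the 9 genes was higher with no normalization, a floor of 32 or the mean of all probe sets. The same held for limma without the trend, the methods' test and the fit of 2 diets. Each of these lost Tnfaip3 (adjusted p, or the p of the methods' test, 0.052 to 0.597). Of the 92 other genes, 13 were higher with no normalization. Lower were 1 with no normalization, 1 among genes above the median mean, 1 with the methods' test and 5 with array weights. Of the alternatives, all-gene counts for the Western diet are given below only for no normalization and the median shift. Without the 9 arrays high in testis, smooth muscle or B cell markers, Tnfaip3 had 0.43 and an adjusted p of 0.0596, and Nfkb2 passed (0.42, adjusted p = 0.0421).

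With quercetin against the Western diet, 1 of the 9 genes (Tnfrsf1b) was lower with array weights and with the methods' test. Of the 92, 7 were lower with array weights, 8 with the methods' test, 2 in the fit of 2 diets and 1 with a floor of 32. For quercetin against the control diet, the 92 had 1 higher with no normalization, 9 among genes above the median mean, 7 with the mean of all probe sets, 7 with array weights, 8 with the methods' test and 8 without the 9 arrays, and 1 lower with array weights and 1 without the 9 arrays. All-gene counts under these settings are not given for that comparison, so its counts are not read as results about the pathway. Over all genes, quercetin against the Western diet gave 46 higher and 15 lower, but 3 and 0 with no normalization, 0 and 3 with a median shift, 0 and 0 with the mean of probe sets or without the trend, 135 and 65 above the median mean, 762 and 617 with array weights, 474 and 532 with the methods' test, 485 and 288 in the fit of 2 diets, and 1 and 0 without the 9 arrays. No normalization gave 1108 higher and 709 lower on the Western diet, against 2052 and 1168, and the median shift 2323 and 580. The causes were not tested.

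Replicate numbers did not pair the mice (27 pairs, correlations -0.325 to 0.183, 4 over 0.1). A replicate block changed the call of none of the 9 genes, with Tnfrsf1b at -0.59 (adjusted p = 0.145) for quercetin and 1.03 (adjusted p = 0.00067) on the Western diet, and gave 6 higher and 2 lower genes of all for quercetin.

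Some values that did not pass turned direction. With no normalization, Rela had 0.022 for quercetin against the Western diet and Nfkbia 0.026 for quercetin against the control diet. With a median shift Nfkbia had -0.044 for quercetin against the Western diet, 0.05 for the Western diet against the control diet and 0.0080 for quercetin against the control diet. With the mean of all probe sets, Nfkbia had -0.026 for quercetin against the Western diet and 0.010 for the Western diet against the control diet, and Tnfaip3 -0.23 for quercetin against the control diet. Tnf had -0.043 there with a floor of 32. Array weights gave Rela -0.011 on the Western diet, and for quercetin against the control diet Tnfrsf1a -0.032, Rela -0.029, Relb -0.034 and Ikbkb -0.025. Without the 9 arrays, quercetin against the Western diet gave Tnf 0.23 and Nfkbia -0.024, the Western diet gave Tnfrsf1a -0.048 and Rela -0.051, and quercetin against the control diet gave Tnfrsf1a -0.15, Rela -0.074, Relb -0.11 and Ikbkb -0.050. Leaving out 1 array, Rela had -0.019 to 0.017 and Nfkbia -0.018 to 0.069 for quercetin against the Western diet, and Rela -0.0078 to 0.068 for the Western diet against the control diet. Against the control diet, quercetin mice had Tnf at -0.16 to 0.32, Tnfrsf1a -0.020 to 0.10, Rela -0.012 to 0.064, Relb -0.035 to 0.19 and Ikbkb -0.030 to 0.080.

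The relation of Tnfrsf1b to macrophage markers passed in each diet under the other settings of scale, floor and pseudocount, but not with the mean of all probe sets (r = 0.88 in quercetin mice, 0.77 on the Western diet, 0.69 on the control diet, adjusted p = 0.0625, 0.24 and 0.279).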
